A study of Homo sapiens with 15 samples.

Results

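The 48 genes described here encode heat shock proteins and co-chaperones, the proteins that fold, refold and hand on other proteins. They were chosen by name and taken from the array as every non-control probe annotated with a RefSeq transcript of the gene, of which the brightest probe well above background in either group was kept. All 48 had such a probe, among 19483 RefSeq genes named by a probe and 12132 RefSeq genes tested. The members were 27 cytosolic proteins, 14 proteins of the endoplasmic reticulum, 5 mitochondrial proteins and 2 transcriptional regulators. The samples were cultures of PE/CA-PJ41, an immortalised human oral squamous carcinoma line, which per the labels were stably transfected with the pCMV6-Neo plasmid and selected in G418 sulfate. CYGB+ cells carried that plasmid with the human cytoglobin cDNA under its viral promoter, and per the study's methods the arrayed CYGB+ line was 1 clone. NCE cells carried the empty vector per the labels, whereas the study's text also calls its control un-transfected, and all cells of both groups were kept 24 hours in supplemented medium, with no other treatment, before RNA was taken on 3 occasions. Total RNA of 3 biological replicates a group was read on 15 arrays, with 3 array repeats of each NCE replicate and 2 of each CYGB+ replicate.

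HSP70 proteins bind short hydrophobic stretches of unfolded proteins and release them in a cycle driven by ATP. J-domain proteins bring clients to HSP70 and start that hydrolysis, while nucleotide exchange factors such as the BAG proteins end it. HSP90 acts later on nearly folded clients, small heat shock proteins hold aggregating clients without ATP, and the endoplasmic reticulum and mitochondria each have an HSP70, an HSP90 and further folding enzymes of their own. The cytosolic set is controlled largely by heat shock factor 1 (HSF1) through heat shock elements, and the endoplasmic reticulum set by the unfolded protein response through the endoplasmic reticulum stress element.

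Promoter sequences are shown for 7 members because they carry these 2 kinds of element or belong to the members that fell furthest. RefSeq sequences of build GRCh38.p14 were at hand for 43 of the 48 members, with 60 promoters in all, since some genes have several annotated starts. Each window ran from 250 bases before to 50 bases after the start, and both strands were searched. The endoplasmic reticulum stress element was searched as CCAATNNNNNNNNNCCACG and the heat shock element as GAANNTTC or TTCNNGAA, with the longer forms GAANNTTCNNGAA or TTCNNGAANNTTC, which contain the shorter ones. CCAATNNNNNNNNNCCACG was in 27 of all 35116 promoters (0.0769%) and in 7 of the 60 member promoters. These 7 belonged to 5 of the 12 endoplasmic reticulum members with a promoter, CALR, CANX, HSP90B1, HSPA5 and PDIA6, and to none of the 25 cytosolic and 5 mitochondrial members. The long heat shock form was in 172 promoters (0.49%) and in 6 members, DNAJA1, DNAJB6, HSP90AA1, HSP90AB1, HSPA8 and HSPD1. The short form was in 13.5% of all promoters and in 18 of the 60 member promoters, which belonged to 14 cytosolic members, 2 mitochondrial members and CANX. A match is a description of letters and says nothing of whether a factor binds there.

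The 3 promoters below hold the stress element, with its CCAAT and CCACG ends in capitals on either strand. They span chr9:125241344-125241593 on the minus strand for HSPA5, chr5:179698679-179698928 on the plus strand for CANX (1 of its 4 listed promoters) and chr12:103930160-103930409 on the plus strand for HSP90B1, each ending at the base before the annotated start.
HSPA5: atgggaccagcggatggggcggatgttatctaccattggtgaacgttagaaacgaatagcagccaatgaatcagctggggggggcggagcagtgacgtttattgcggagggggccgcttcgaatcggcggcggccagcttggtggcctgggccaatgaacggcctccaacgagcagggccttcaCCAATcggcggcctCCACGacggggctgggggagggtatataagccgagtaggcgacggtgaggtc
CANX: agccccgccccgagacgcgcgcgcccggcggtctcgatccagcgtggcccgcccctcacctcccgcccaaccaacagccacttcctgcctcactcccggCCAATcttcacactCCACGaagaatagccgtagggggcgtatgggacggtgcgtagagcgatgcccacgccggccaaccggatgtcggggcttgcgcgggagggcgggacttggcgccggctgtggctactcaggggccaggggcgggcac
HSP90B1: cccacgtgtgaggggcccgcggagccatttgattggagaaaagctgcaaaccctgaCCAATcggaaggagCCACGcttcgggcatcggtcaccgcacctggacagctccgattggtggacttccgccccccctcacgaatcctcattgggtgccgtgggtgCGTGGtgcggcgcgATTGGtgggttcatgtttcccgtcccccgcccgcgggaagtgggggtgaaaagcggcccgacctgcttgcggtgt
The next 2 promoters hold the short heat shock form, in capitals, at chr12:119178681-119178930 for HSPB8 and chr6:31815293-31815542 for HSPA1A, both on the plus strand; HSPB8 holds another match after its start.
HSPB8: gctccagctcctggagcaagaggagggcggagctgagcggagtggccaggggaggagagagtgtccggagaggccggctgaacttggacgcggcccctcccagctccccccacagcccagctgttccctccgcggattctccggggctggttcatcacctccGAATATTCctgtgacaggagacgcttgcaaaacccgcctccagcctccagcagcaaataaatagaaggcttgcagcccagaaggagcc
HSPA1A: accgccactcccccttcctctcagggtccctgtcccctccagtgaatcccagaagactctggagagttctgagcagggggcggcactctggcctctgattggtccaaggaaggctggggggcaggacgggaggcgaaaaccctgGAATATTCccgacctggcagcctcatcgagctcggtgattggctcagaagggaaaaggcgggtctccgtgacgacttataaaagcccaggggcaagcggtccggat
The last 2 belong to the members that fell furthest, HSPA2 at chr14:64540491-64540740 on the plus strand and HSPA13 at chr21:14383147-14383396 on the minus strand, and hold neither the stress element nor either heat shock form.
HSPA2: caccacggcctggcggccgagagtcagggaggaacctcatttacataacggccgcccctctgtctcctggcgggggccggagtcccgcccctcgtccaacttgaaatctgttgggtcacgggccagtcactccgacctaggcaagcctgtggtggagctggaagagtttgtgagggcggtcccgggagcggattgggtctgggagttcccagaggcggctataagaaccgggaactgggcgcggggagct
HSPA13: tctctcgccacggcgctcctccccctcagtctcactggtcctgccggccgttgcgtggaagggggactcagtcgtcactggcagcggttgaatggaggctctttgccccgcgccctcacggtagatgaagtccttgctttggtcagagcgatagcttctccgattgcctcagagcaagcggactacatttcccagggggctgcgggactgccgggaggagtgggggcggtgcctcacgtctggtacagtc

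The labels' direction could not be checked on CYGB itself, whose probe read 11.87, 12.16 and 11.94 in the libraries labelled NCE and 11.36, 12.42 and 11.96 in those labelled CYGB+ (log2 level, difference -0.07, adjusted p = 0.870). The probe was well above background on all 9 NCE arrays, and the median level over all probes tested was 8.25. The study describes the parent line as not expressing cytoglobin, and the cause of the NCE signal was not tested. It reports high cytoglobin in the arrayed clone, from qPCR and in-cell ELISA, and qPCR of selected array genes, none of them a member here. Those assays were not compared with the arrays here. The sources used here do not state whether the plasmid holds the stretch that the probe reads. Every direction below is therefore that of the labels. On each array 48.9% to 57.3% of probes were well above background. Slide 1 held 8 NCE arrays, and slide 2 held 1 array of NCE replicate 1 and all 6 CYGB+ arrays, so slide and group were nearly the same split. The array of CYGB+ replicate 1 repeat 1 stood apart from the rest. Its root mean square deviation from the mean of all arrays was 0.70, the largest, with NCE replicate 3 repeat 2 next at 0.42. In these deviations the 2 arrays of CYGB+ replicate 1 correlated at -0.02. To the arrays of its group, repeat 1 correlated at a mean of 0.006 and repeat 2 at 0.39. After that pair, the lowest mean correlations within a replicate were 0.03 for NCE replicate 3 repeat 2 and 0.12 for NCE replicate 1 repeat 3. To the arrays of their group these 2 correlated at a mean of -0.02 and -0.05. NCE replicate 1 repeat 3 is the NCE array on slide 2, so the slide term rests on it. All 10 markers of squamous epithelium were well above background on all 15 arrays, while 1 of 7 fibroblast markers (COL1A2), 1 of the 4 leukocyte markers on the array (CD14) and 0 of 4 endothelial markers were. The fibroblast list's summed level (log2 of the sum) was 9.26 to 9.37 in NCE and 8.90 to 8.98 in CYGB+, with COL1A2 at 7.85 and 6.52 (adjusted p = 0.00287) and 4 of its defining markers, COL3A1, LUM, PDGFRB and THY1, well above background on no array. The leukocyte list ran from 8.85 to 9.20 in NCE and 8.69 to 8.97 in CYGB+, the endothelial list from 8.12 to 8.69 and 8.11 to 8.25, and the epithelial list from 16.61 to 16.72 and 16.48 to 16.76, and the part of these in any result was not tested. The labels call the samples biological replicates, with RNA taken on 3 occasions, but do not say whether each was grown separately. P-values of fits on replicate means therefore measure the spread between these samples, which may in part be technical. Fits over single arrays also draw on the spread between array repeats.

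Of the 48 members, 5 were called higher and 5 lower in CYGB+ by limma with Benjamini-Hochberg adjusted p under 0.05, and 38 were not called. The higher members were HSPB8, CANX, HSPA5, HSF1 and CRYAB, and the lower ones were HSPA2, HSPA13, DNAJC5, DNAJC10 and DNAJB6. CRYAB entered the test only through CYGB+, the group where it was higher, and with the filter set to all 15 arrays, which leaves it out, 4 members were called higher. Among all 19791 probes tested, 12% were called, 5.88% higher and 6.15% lower, and among the brightest probes of RefSeq genes 13.7% were called. The 10 called were 20.8% of the members, and whether that share differs from the array's was not tested. The members' median log2 difference was 0.059, within a range of -1.05 to 0.84, beside -0.00 over all probes, with 27 members above 0 and 21 below. The replicates of the 2 groups did not overlap for 19 members (39.6%), beside 34.9% of all probes. At an unadjusted p under 0.05 there were 16 members, beside 5755 of all probes. Leaving out any 1 NCE replicate, or CYGB+ replicate 2 or 3, left 1 to 3 members called higher and 2 or 3 called lower. Without the array that stood apart 9 were higher and 5 lower, all 10 of the calls above among them, while 4113 of all probes (20.8%) were called. With the slide as a term, in a fit over the 15 arrays, 3.87% of all probes were called, and HSPA2, HSPA13 and DNAJC5 were the 3 members called (6.25%). Here and below, p-values with the slide term draw in part on array repeats and are not comparable with those of the main fit.

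**Figure D1:**
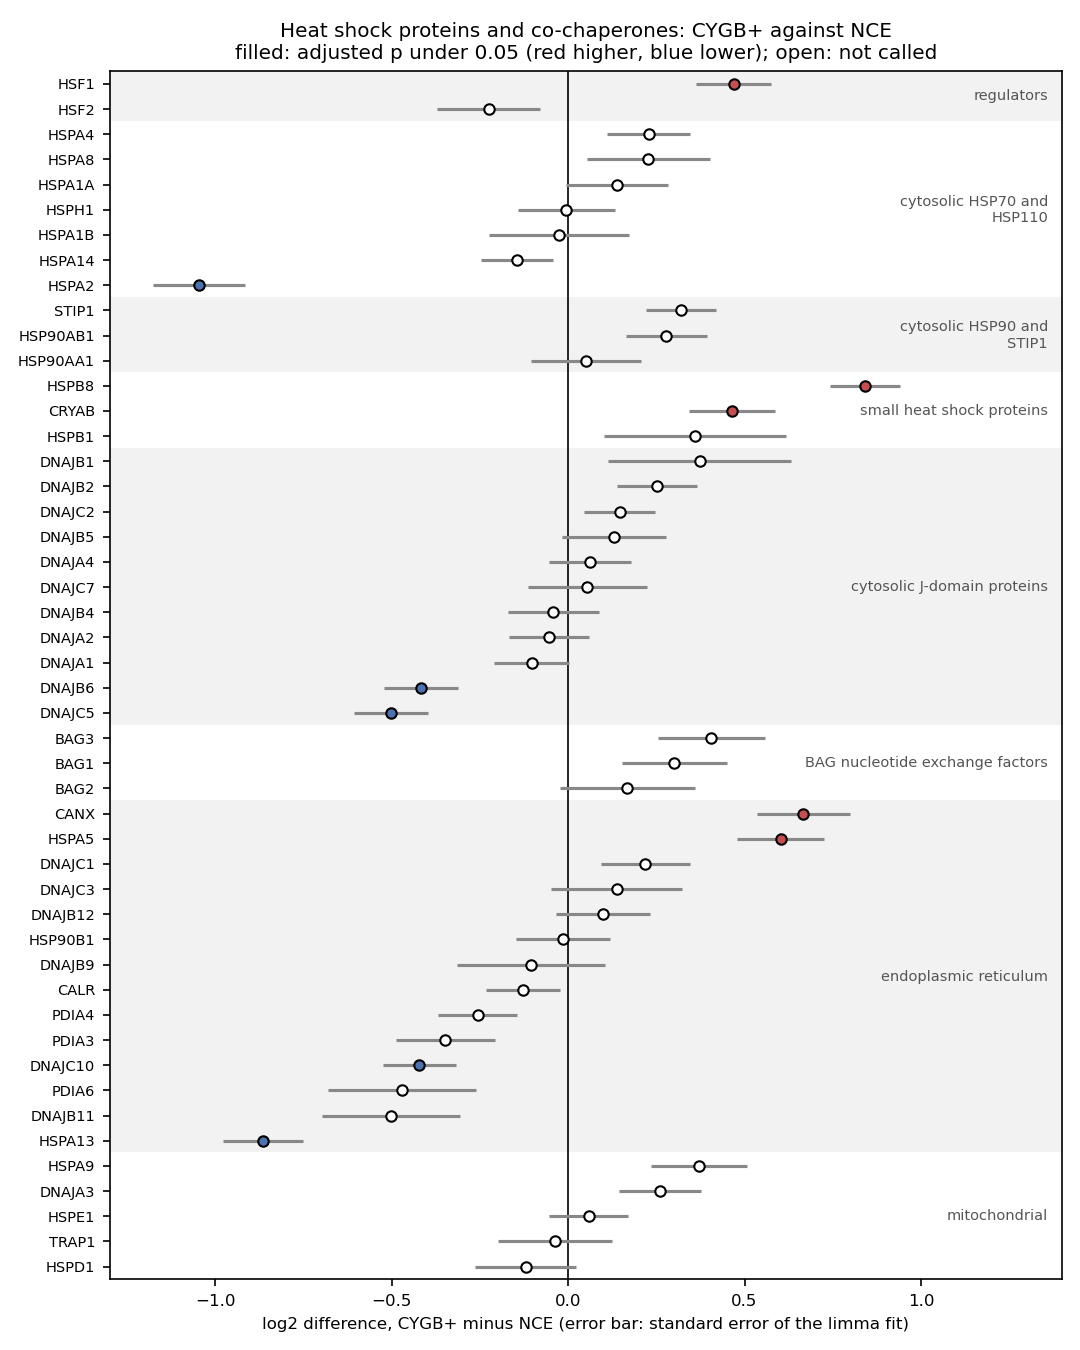
Log2 difference of each of the 48 members, CYGB+ minus NCE (x axis), with the standard error of the limma fit as bars, grouped by protein family and compartment. Filled red and blue points mark the 5 members called higher and the 5 called lower, which lie in the cytosol, the endoplasmic reticulum and the regulators, and none of the 5 mitochondrial members is filled.

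By compartment, 2 of the 27 cytosolic members were called higher and 3 lower, 2 of the 14 endoplasmic reticulum members higher and 2 lower, and 0 of the 5 mitochondrial members in either direction. The median log2 difference was 0.14 for cytosolic members and stayed above 0 under every scaling tried. It was -0.12 for endoplasmic reticulum members but 0.016 with the processed signal scaled to the 75th percentile and 0.055 in the authors' own table. For mitochondrial members it was 0.058, and -0.013 without CYGB+ replicate 3. Each compartment held members on both sides of 0, and the difference between compartments was not tested.

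HSF1, the transcription factor that turns on heat shock genes, was higher in CYGB+. Its log2 levels were 12.54, 12.48 and 12.41 in NCE and 13.05, 12.99 and 12.80 in CYGB+, with no overlap. The difference was 0.47 ± 0.11 (SE, n = 3 a group), a 1.38-fold rise with adjusted p = 0.0317, and another HSF1 probe gave 0.62 (adjusted p = 0.0359). In the fit with the slide as a term the difference was 0.30 and was not called (adjusted p = 0.267). HSF2, a related factor active in development, read 8.60, 9.03 and 8.94 in NCE and 8.44, 8.69 and 8.75 in CYGB+. These ranges overlapped (difference -0.23 ± 0.15, adjusted p = 0.348). For HSF2 the slide 2 array of NCE replicate 1 differed by -0.42 from the slide 1 arrays of the same replicate, and with the slide as a term its difference was 0.25.

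The genes best known as induced by heat were not called. HSPA1A and HSPA1B encode nearly identical stress-inducible HSP70 proteins, and their probes may each read both transcripts. HSPA1A read 13.81, 13.86 and 13.58 in NCE and 14.15, 13.73 and 13.79 in CYGB+ (difference 0.14 ± 0.14, adjusted p = 0.560). HSPA1B read 12.27, 12.18 and 11.81 in NCE and 12.45, 11.92 and 11.80 in CYGB+ (-0.03 ± 0.20, adjusted p = 0.946). In both genes CYGB+ replicate 1 was the highest sample and the other CYGB+ replicates lay within or below the NCE range. DNAJB1, the J-domain partner of inducible HSP70, showed the same order, with 11.70, 11.17 and 11.33 in NCE and 12.36, 11.54 and 11.42 in CYGB+ (0.37 ± 0.26, adjusted p = 0.380). The high value of replicate 1 came from the array that stood apart, which read 13.11 for DNAJB1 where the other CYGB+ arrays read 11.11 to 11.73. Without that array the differences were 0.01 for HSPA1A, -0.14 for HSPA1B and 0.12 for DNAJB1, and none was called.

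HSPA8, the constitutive HSP70, read 13.26, 13.57 and 13.19 in NCE and 13.23, 13.78 and 13.69 in CYGB+ (0.23 ± 0.17, adjusted p = 0.427). It was low on the same array, at 12.72 beside 13.54 to 13.84 on the other CYGB+ arrays. Without that array the difference was 0.40 and was called (adjusted p = 0.0431). HSPA4, an HSP110 exchange factor for HSP70, likewise moved from 0.23 (adjusted p = 0.249) to 0.37 (adjusted p = 0.0175), and a second, dimmer HSPA4 probe was called in all arrays at 0.47 (adjusted p = 0.0258). HSPH1, another HSP110, differed by -0.00 and HSPA14, a ribosome-bound HSP70, by -0.15, and neither was called.

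HSPA2, an HSP70 best known for its part in sperm formation, fell furthest of all members. It read 9.43, 9.30 and 9.37 in NCE and 8.57, 8.20 and 8.18 in CYGB+. Every CYGB+ replicate lay below every NCE replicate. The level was 2.07-fold lower in CYGB+ (difference -1.05 ± 0.13, SE, n = 3 a group, adjusted p = 0.00569). The difference was -1.20 (adjusted p = 0.00787) in the fit with a slide term and -1.21 within slide 2 alone. Both values rest on the 1 NCE array on slide 2 and are not separate checks. The call held in all 19 alternative settings, with differences from -1.25 to -0.98. As bulk RNA cannot tell fewer expressing cells from less RNA per cell, this and every other difference is one of the whole culture.

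**Figure D2:**
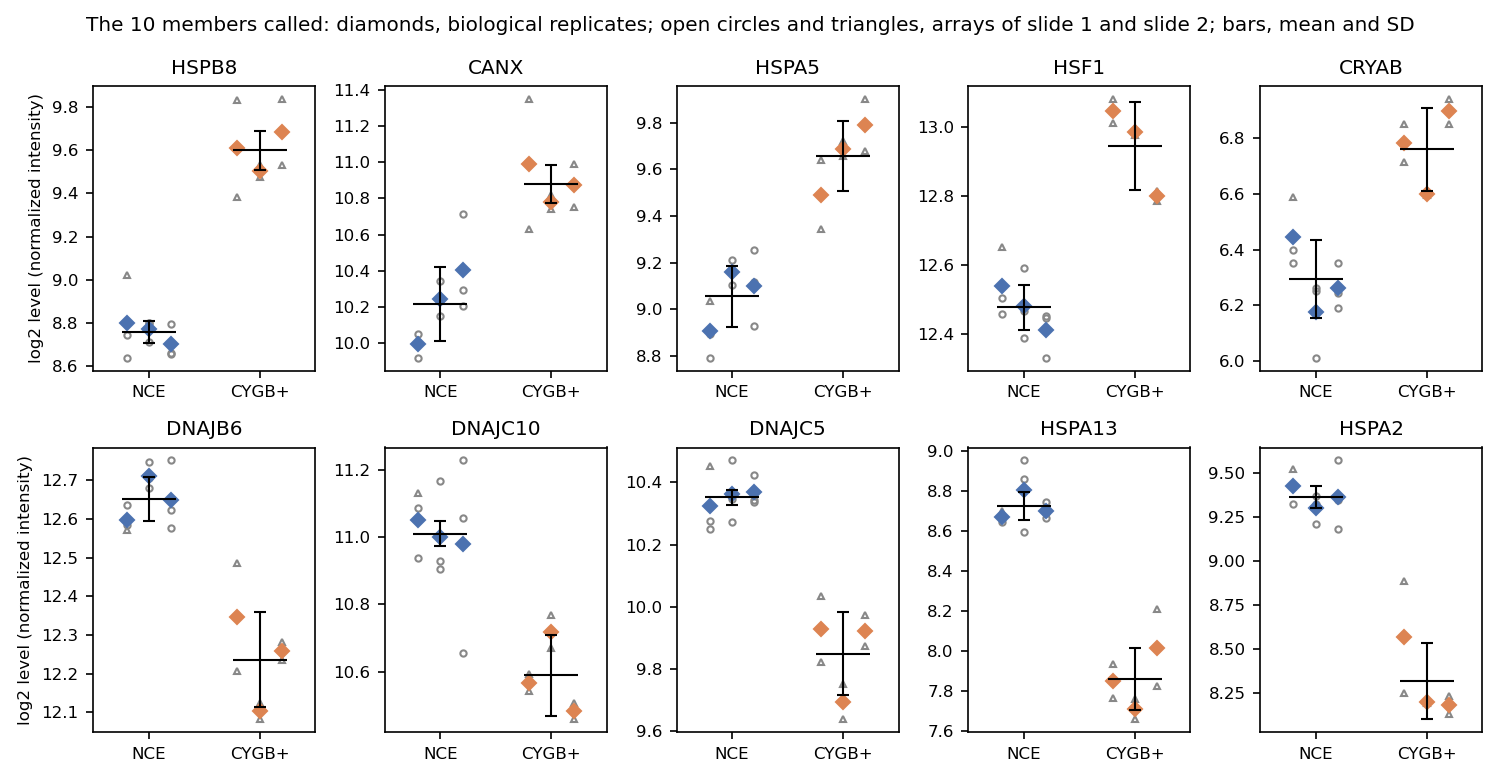
Log2 level (normalized intensity, y axes with separate ranges that do not start at 0) of the 10 members called, by group. Diamonds are biological replicates, open symbols single arrays (circles on slide 1, triangles on slide 2), and bars the mean and SD of 3 replicates, and in each panel the 3 NCE diamonds lie apart from the 3 CYGB+ diamonds.

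The cytosolic HSP90 genes and STIP1, which links HSP70 to HSP90, were not called. HSP90AA1, the inducible HSP90, read 16.26, 16.32 and 15.89 in NCE and 16.04, 16.44 and 16.14 in CYGB+, so the groups overlapped (0.05 ± 0.16, adjusted p = 0.862). HSP90AB1, the constitutive one, read 12.76, 13.05 and 12.74 in NCE and 13.13, 13.14 and 13.12 in CYGB+ (0.28 ± 0.11, adjusted p = 0.155). Its CYGB+ replicates all lay above the NCE replicates, but a second HSP90AB1 probe differed by -0.01. STIP1, with a value missing on 1 array, differed by 0.32 ± 0.10 (adjusted p = 0.0767). For HSP90AA1 the single NCE array on slide 2 read 0.84 above the arrays of the same replicate on slide 1, and for STIP1 0.52. The arrays of NCE replicate 2, all on slide 1, read 15.73, 16.40 and 16.82 for HSP90AA1. Repeats on 1 slide thus spread as widely, and the 0.84 cannot be told apart from spread between repeats. With the slide as a term the differences became -0.64 for HSP90AA1, 0.23 for HSP90AB1 and -0.14 for STIP1. The difference between the slide 2 and slide 1 arrays varied by probe. Other HSP90AA1 probes shifted by 0.14 and -0.18 and differed by -0.03 and 0.45 with the slide as a term. Another STIP1 probe shifted by 0.039 and differed by 0.13 with that term. No direction thus holds for this family.

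**Figure D3:**
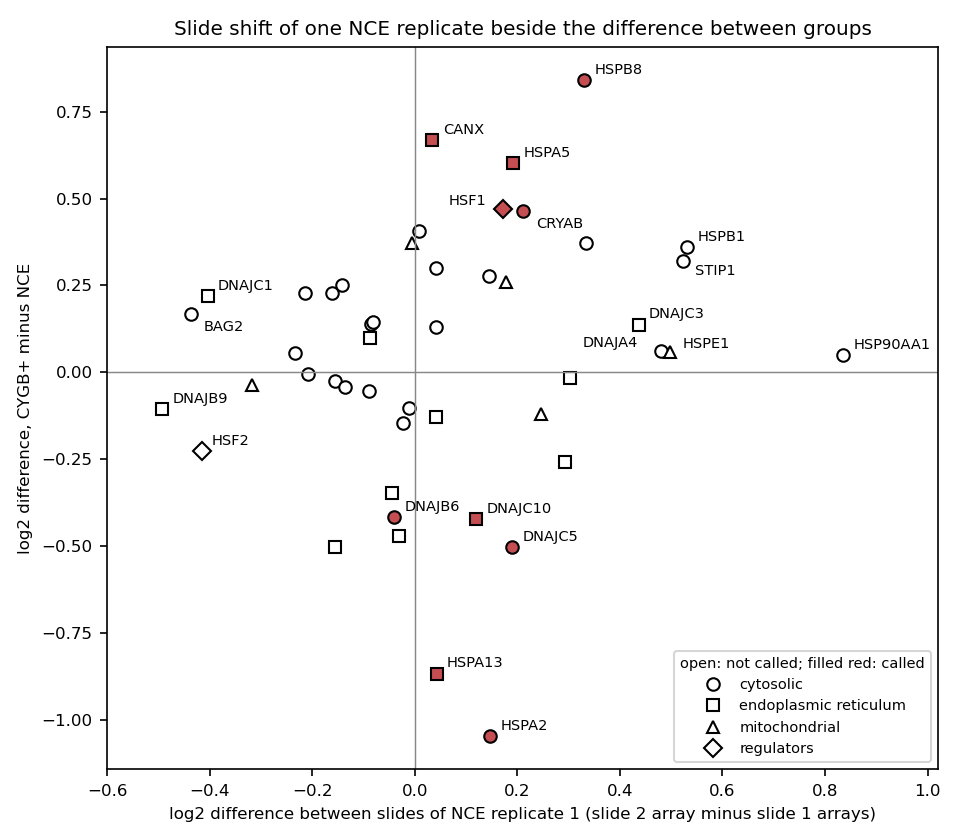
Each point is 1 of the 48 members, with the log2 difference between the slide 2 and slide 1 arrays of NCE replicate 1 on the x axis and the log2 difference between groups on the y axis. HSPA2 and HSPA13 lie far below 0 at x values of 0.15 and 0.043, HSPB8 lies high at 0.33, and HSP90AA1 has the largest x value, 0.84. Each x value rests on 1 slide 2 array and may in part be spread between repeats.

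Of the 3 small heat shock proteins HSPB8 and CRYAB were called higher, CRYAB only under the filter that let it in through CYGB+. HSPB8, which works with BAG3 to steer damaged proteins to autophagy, read 8.80, 8.77 and 8.70 in NCE and 9.61, 9.50 and 9.68 in CYGB+. The groups lay far apart beside their spread, and the level was 1.79-fold higher (0.84 ± 0.10, adjusted p = 0.00496). Its call held in 18 of 19 alternatives and was lost with the slide as a term, where the difference was 0.57 (adjusted p = 0.0792). The slide 2 array of NCE replicate 1 read 0.33 above that replicate's slide 1 arrays for HSPB8. Within slide 2, against that 1 array, the difference was 0.58, which is not a separate check from the slide term. CRYAB, alpha B crystallin, was dim. It passed the filter through CYGB+, being well above background on 6 of 6 CYGB+ arrays and 5 of 9 NCE arrays, and its NCE range of 6.18 to 6.45 lay below its CYGB+ range of 6.60 to 6.90 (0.46 ± 0.12, adjusted p = 0.0495). A slide term left 0.21 (adjusted p = 0.638). HSPB1, a small heat shock protein that binds actin and is plentiful in epithelium, read 14.62, 14.26 and 14.43 in NCE and 15.42, 14.60 and 14.37 in CYGB+ (0.36 ± 0.26, adjusted p = 0.394). CYGB+ replicate 1 was the highest sample, the other CYGB+ replicates lay within the NCE range, and with the slide as a term the difference was -0.15. A second, dimmer HSPB1 probe read 8.78 to 8.89 in NCE and 9.06 to 9.24 in CYGB+, without overlap, and was not called either (0.31, adjusted p = 0.0860, and 0.21 with a slide term).

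The 3 BAG genes were not called by limma, with differences of 0.17 to 0.41 and 1 unadjusted p under 0.05. BAG3, the partner of HSPB8, read 9.46, 9.54 and 9.29 in NCE and 9.58, 9.83 and 10.11 in CYGB+. The CYGB+ replicates all lay above the NCE replicates (0.41 ± 0.15, adjusted p = 0.126). On the array that stood apart BAG3 read 9.17 beside 9.79 to 10.11 on the other CYGB+ arrays, and without it the difference was 0.54 and was called (adjusted p = 0.0127). A slide term gave 0.38 (adjusted p = 0.640).

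Of the 11 cytosolic J-domain genes, 2 were called lower and none higher. DNAJC5, the cysteine string protein that guards vesicle release, read 10.33 to 10.37 in NCE and 9.70 to 9.93 in CYGB+, without overlap (-0.50 ± 0.11, 1.42-fold lower, adjusted p = 0.0254). It was -0.63 and still called with a slide term (adjusted p = 0.0204), while a dimmer DNAJC5 probe gave -0.30 (adjusted p = 0.0854). DNAJB6, which holds back aggregation of polyglutamine proteins, differed by probe. The brightest probe gave -0.42 ± 0.11 (adjusted p = 0.0430) and another probe for the same transcript -0.77 (adjusted p = 0.00727), but a probe for a different DNAJB6 transcript gave 0.18 (adjusted p = 0.460). With the replicate number as a block the brightest probe of DNAJB6 was no longer called (adjusted p = 0.0571). The other 9 genes ranged from -0.10 for DNAJA1 to 0.37 for DNAJB1.

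In the endoplasmic reticulum the lectin chaperone calnexin and the HSP70 BiP rose while other folding genes fell or were not called. HSPA5, which encodes BiP, the master chaperone and stress sensor of this compartment, read 8.91, 9.16 and 9.10 in NCE and 9.49, 9.69 and 9.79 in CYGB+. The groups did not overlap, and the level was 1.52-fold higher (0.60 ± 0.12, adjusted p = 0.0233). CANX, calnexin, read 9.99, 10.24 and 10.40 in NCE and 10.99, 10.78 and 10.87 in CYGB+, again without overlap (0.67 ± 0.13, 1.59-fold higher, adjusted p = 0.0212). A second CANX probe was also higher, by 0.47 (adjusted p = 0.0303). The slide term gave 0.55 for HSPA5 and 0.78 for CANX, and neither was called (adjusted p = 0.137 and 0.136).

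HSPA13, a microsomal HSP70 also called STCH, fell. It read 8.67, 8.80 and 8.70 in NCE and 7.85, 7.71 and 8.02 in CYGB+. No sample of one group reached the other, and the level was 1.82-fold lower in CYGB+ (-0.87 ± 0.11, adjusted p = 0.00657). With the slide as a term the difference was -0.86 (adjusted p = 0.0141), the slide shift in NCE replicate 1 was 0.043, and the call held in all 19 alternatives. DNAJC10, a J-domain protein with disulfide reductase activity that partners BiP, differed by -0.42 in its brightest probe and by -0.58 in another, and both were called lower (adjusted p = 0.0387 and 0.0271). The slide term gave DNAJC10 a difference of -0.54 (adjusted p = 0.149). HSPB8, CANX, HSPA5, HSPA2 and HSPA13 were the 5 members called with at least a 1.5-fold difference, beside 7.1% of all probes.

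The remaining 10 endoplasmic reticulum genes were not called. HSP90B1 (GRP94), the HSP90 of this compartment, read 14.38, 14.68 and 14.71 in NCE and 14.52, 14.46 and 14.75 in CYGB+ (-0.02 ± 0.13, adjusted p = 0.952). CALR, the soluble lectin calreticulin, read 14.73, 14.90 and 14.95 in NCE and 14.81, 14.67 and 14.74 in CYGB+ (-0.13 ± 0.10, adjusted p = 0.459). PDIA4, a disulfide isomerase, read 11.25, 11.50 and 11.37 in NCE and 11.15, 11.005 and 11.20 in CYGB+, just without overlap (-0.26 ± 0.11, adjusted p = 0.175). Of the other disulfide isomerases, PDIA3 differed by -0.35 in its brightest probe and by 0.020 in another, and PDIA6 by -0.47. DNAJB11, a BiP partner, differed by -0.50. With the replicate number as a block PDIA6 and DNAJB11 were called lower (adjusted p = 0.0317 and 0.0354), but their differences within slide 2 were -0.057 and -0.083. Of the 5 members whose promoters hold the stress element, HSPA5 and CANX were called higher, beside 5.88% of all probes. Neither was called with the slide as a term. HSP90B1, CALR and PDIA6 differed by -0.02, -0.13 and -0.47 and were not called, though PDIA6 was called lower with the replicate block. Whether the element has a part in these differences was not tested.

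None of the 5 mitochondrial genes was called by limma or by the methods' t-test after Benjamini-Hochberg adjustment, and 1, HSPA9, had an unadjusted p under 0.05. HSPA9 (mortalin), the mitochondrial HSP70 that pulls proteins through the import channel, read 10.74, 10.95 and 10.99 in NCE and 11.14, 11.14 and 11.50 in CYGB+. The groups did not overlap, but the difference did not pass the test (0.37 ± 0.14, adjusted p = 0.119). HSPD1 and HSPE1, the subunits of the HSP60 and HSP10 chaperonin, which share a bidirectional promoter, differed by -0.12 ± 0.14 and 0.06 ± 0.11. HSPD1 read 14.97, 15.22 and 15.25 in NCE and 14.79, 15.08 and 15.22 in CYGB+, and HSPE1 read 14.88, 15.004 and 14.91 in NCE and 15.01, 14.83 and 15.13 in CYGB+, so that both overlapped (adjusted p = 0.617 and 0.772). TRAP1, the mitochondrial HSP90, read 9.51, 9.96 and 9.77 in NCE and 9.48, 9.72 and 9.94 in CYGB+ (-0.04 ± 0.16, adjusted p = 0.905). DNAJA3, the J-domain partner of HSPA9, differed by 0.26 ± 0.12 (adjusted p = 0.183), with no overlap between groups.

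**Figure D4:**
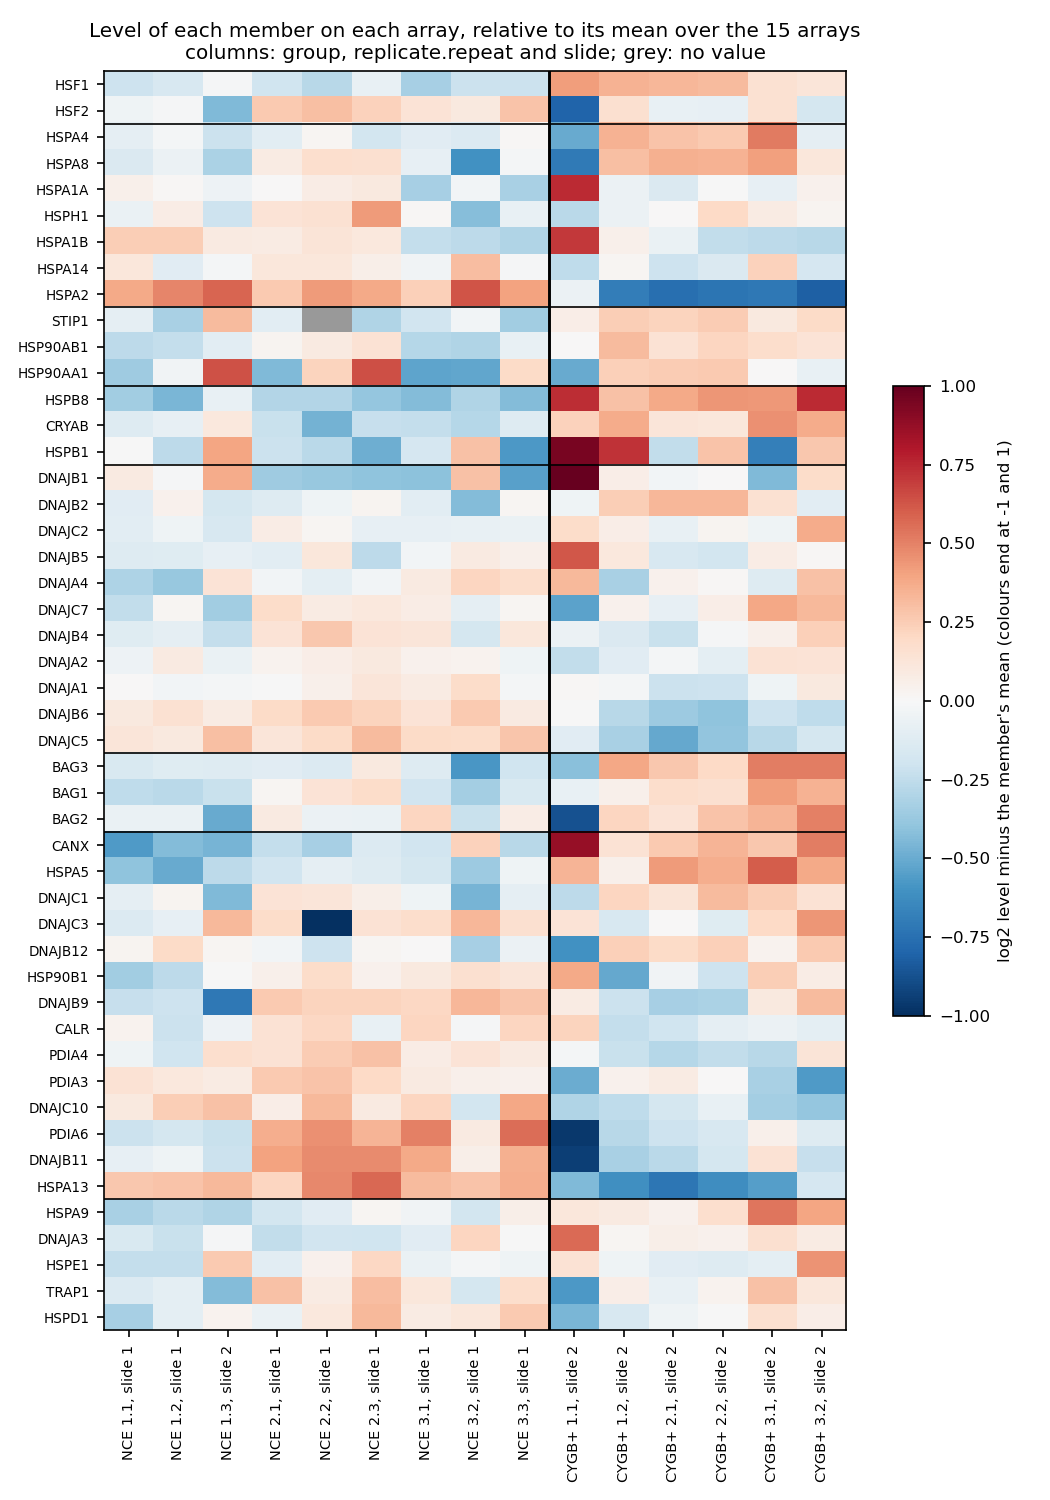
Log2 level of the 48 members (rows) on the 15 arrays (columns, named by group, replicate, repeat and slide), relative to each member's mean over the arrays. The column of CYGB+ replicate 1 repeat 1 departs from the other CYGB+ columns in DNAJB1, HSPA1A, HSPA8 and BAG3, while HSPA2 and HSPA13 are low across the other CYGB+ columns.

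Other genes of protein folding were taken from 4 lists of 64 genes. Of these 62 were tested, and 6 were called higher and 4 lower, beside 13.7% of the brightest probes of RefSeq genes called. Whether the share differs from the array's was not tested. Of 18 further cytosolic co-chaperones none was called higher and 1 lower, PTGES3 (p23, an HSP90 cofactor), at -0.70 (adjusted p = 0.0495) and at -0.12 with the slide as a term. Of 14 genes of the TRiC chaperonin and prefoldin, which fold actin and tubulin, the prefoldin subunit PFDN1 was higher (0.60), and the prefoldin subunit PFDN4 (-0.997) and the TRiC subunit CCT8 (-0.96) were lower. Thus subunits of 1 complex, prefoldin, were called in opposite directions in the main fit. With the slide as a term PFDN1 was still called (0.62, adjusted p = 0.0175). PFDN4 (-0.60, adjusted p = 0.650) and CCT8 (-1.15, adjusted p = 0.178) were not called with that term. Of 19 tested genes of the unfolded protein response and of quality control, DERL1, a channel component for export of misfolded proteins, was higher (0.64). SIL1, an exchange factor of BiP, was also higher (0.52). ERO1A (also named ERO1L), the oxidase that recharges disulfide isomerases, was lower (-0.79). Of 11 mitochondrial folding and proteolysis genes 3 were higher and none lower, GRPEL2, an exchange factor of HSPA9 (0.68), AFG3L2, an inner membrane protease (0.67), and HTRA2, an intermembrane space protease (0.51). The median log2 difference was 0.01, 0.03, -0.03 and 0.14 for the 4 lists in this order, beside -0.00 over all probes. A slide term left 3 of the 62 genes called, PFDN1, SIL1 and AFG3L2, beside 3.87% of all probes. Without the array that stood apart 14 were called, beside 20.8%.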

How the data were processed

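RNA of PE/CA-PJ41 cells labelled NCE or CYGB+ was hybridised to 15 Agilent SurePrint G3 arrays. Per the labels every sample carried Cy3, whereas the study's methods give Cy5 for the control, and what the red channel holds is not given in the sources used here, so the green channel was compared. The deposited scanner tables, made by the authors with Feature Extraction 10.7.3.1 per the file headers, hold linear spot intensity values. Mean signals, which had been planned for, were not in the tables, and the median green signal and local background were used (limma 3.58.1 in R 4.3.3, normexp with an offset of 50). Outlier spots were dropped, arrays were quantile normalized, and spots of a probe and then arrays of a replicate were averaged. The authors' own value table holds natural log values of the processed green signal, centred per probe on the CYGB+ arrays and not scaled between arrays, with array medians from -0.23 to 0.26 on the log2 scale; it was used as an alternative and holds the probe of 44 members.

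Probes well above background on every array of at least 1 group were tested (lmFit and eBayes, 3 against 3, Benjamini-Hochberg over all 19791 probes) and called at an adjusted p under 0.05. A gene was read from its brightest probe. No array saturated more than 1 probe, and the number of arrays limits the precision. The exact two-sided permutation test cannot go below p = 0.1 with 3 against 3. Members and lists were chosen with earlier results of these data known. Of the named genes, the regulators, the main chaperones of each compartment and the members called with at least a 1.5-fold difference were given by replicate, the rest by range, and of other lists the 2 called genes with the largest change in each direction; HTRA2 falls outside this rule and was named after its value was seen. Deviations from the group means correlated at 0.22, 0.23 and 0.31 between samples with the same replicate number. Between others they ranged from -0.51 to 0.30, with NCE replicate 2 and CYGB+ replicate 3 at 0.30. These values do not settle whether the numbers pair the samples. The main fit therefore did not pair them, and the replicate number served as a block in an alternative fit only. The slide term was fitted over arrays with replicate as a random block (correlation 0.21). Alternatives covered the signal, scaling, filter, test, block, slide, probes per gene, each replicate left out and, chosen after seeing the data, 1 or 3 arrays left out. Promoters were read with Python and pandas.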

Additional observations from a re-analysis of the deposited data

Results flagged for a closer look

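The 48 members were tested within each group of arrays by Dixon's test, except STIP1 in NCE, which has a missing value. Chance flags about 1 in 20 groups of independent values, which repeats of a replicate are not. In 18 tests the highest or lowest array lay far from the others. Of these, 13 concerned the array of CYGB+ replicate 1 repeat 1, whose log2 level is given first below, beside the range of the other CYGB+ arrays. It was high for HSPA1A (14.55 beside 13.67 to 13.85), HSPA1B (12.78 beside 11.80 to 12.12), DNAJB1 (13.11 beside 11.11 to 11.73), DNAJB5 (8.70 beside 7.90 to 8.18), DNAJA3 (12.09 beside 11.55 to 11.69) and HSPA2 (8.89 beside 8.13 to 8.25). It was low for HSPA8 (12.72 beside 13.54 to 13.84), HSF2 (7.96 beside 8.59 to 8.92), BAG2 (7.25 beside 8.25 to 8.61), BAG3 (9.17 beside 9.79 to 10.11), DNAJB12 (8.59 beside 9.23 to 9.45), DNAJC1 (9.42 beside 9.81 to 9.99) and PDIA6 (10.07 beside 10.76 to 11.09). In NCE, replicate 1 repeat 3, the array on slide 2, was low for HSF2 (8.32 beside 8.72 to 9.06) and high for HSPB8 (9.02 beside 8.64 to 8.80). Replicate 3 repeat 2 was low for DNAJB2 (11.45 beside 11.70 to 11.93) and BAG3 (9.01 beside 9.39 to 9.69), and replicate 2 repeat 2 for DNAJC3 (7.72 beside 9.17 to 9.65).

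The red channel, which no comparison above used, carried signal for all 48 members, each well above background on all 15 arrays. In that channel 345 of 20297 probes (1.7%) were called between the arrays of the 2 groups. HSPA2 was the 1 member called there, at -0.76 (adjusted p = 0.0425). All 10 members called in green differed in the same direction in red, by unlike amounts. The share of all probes called in green that kept their direction in red was not counted. What the red channel holds is not given, so it cannot be taken as an independent reading. HSPB8 differed by 0.12 in red (adjusted p = 0.727) and by 0.84 in green, and CANX by 0.11 in red (adjusted p = 0.652) and by 0.67 in green. DNAJC10 differed by -0.43 in red (adjusted p = 0.155) and by -0.42 in green.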

How the results depend on the processing

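HSPA2 and HSPA13 kept their calls in all 19 alternative fits, HSPB8 in 18, CANX in 14, HSPA5 in 10, HSF1, DNAJC5 and DNAJC10 in 9, CRYAB in 8 of 17 and DNAJB6 in 7, and no called difference turned its sign. Members called higher and lower were 5 and 5, and the counts changed as follows. The processed signal gave 3 lower and a cytosolic median of 0.24. Scaling to the 75th percentile gave 3 higher and 2 lower, and with the processed signal 3 and 2, with medians of 0.32 (cytosolic) and 0.22 (mitochondrial). The authors' table gave 3 and 2, with medians of 0.055 (endoplasmic reticulum) and 0.23 (mitochondrial), and 1444 probes of the 15031 it let be tested. The slide as a block gave 0 and 3, 765 probes and 3 other folding genes. The methods' t-test gave 1 and 2, 771 probes and 2 other folding genes after Benjamini-Hochberg, and 5067 probes at an unadjusted p under 0.05. Without the filter on dim probes 6 other folding genes were called. Fitting the 15 arrays gave 8 higher, 4672 probes and 16 other folding genes. Leaving out 1 array that stood apart gave 9 higher and 4113 probes, and leaving out 3, with NCE replicate 3 repeat 2 and CYGB+ replicate 3 repeat 2, gave 10 higher, 5002 probes and 17 other folding genes. These 3 arrays had the largest root mean square deviations from the mean of all arrays, 0.70, 0.42 and 0.37. NCE replicate 1 repeat 3, at 0.27, was kept. With each replicate left out in turn, 1 to 4 members were higher, 2 to 4 lower, 521 to 2383 probes and 1 to 9 other folding genes were called. With the replicate block 3057 probes (15.4%) and 11 members were called, 9 of them as before, and beyond DNAJB6, DNAJB11 and PDIA6 it changed no member's call. Within slide 2, where no test was possible, 25 of 52 values moved by more than the spread between replicates. The causes were not tested. Dim probes such as CRYAB, near background in NCE, carry the least certain differences.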
